A study of Chlorocebus aethiops with 8 samples.

Results

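Cytosolic ribosomal protein genes encode the proteins of the 2 subunits of the cytoplasmic ribosome, and were taken here as every probe set whose single gene symbol begins with RPL or RPS followed by a number, with RPLP0, RPLP1, RPLP2 and RPSA. Kinases of the RPS6K family, pseudogenes and paralogs with an L after the number were left out. The rule found 58 probe sets for 34 genes, of 52865 probe sets and 14133 gene symbols in all. Of the 58, 51 were bright enough to be tested, and each of the 34 genes had at least 1 of them. The remaining 7 probe sets, further readings of RPL13, RPL22, RPS16 and RPS28, were too dim. The rule uses gene names and no measured value, though the class was picked with earlier results of these data known. RPLP0, RPSA and 8 further ribosomal protein genes were read only by probe sets with several symbols, which stand outside the rule, and are given at the end.

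The mRNAs of vertebrate ribosomal proteins begin with a 5′ terminal oligopyrimidine (TOP) tract, a C followed by a run of pyrimidines at the cap. This tract lets growth signals, through mTOR and the LARP1 protein, move the whole class of mRNAs between polysomes and lighter, untranslated particles. In growing cells the TOP mRNAs are among the most abundant mRNAs, and a part of them is known to stay off polysomes. RNA helicase A (RHA, encoded by DHX9) is an RNA helicase known to help ribosomes load on mRNAs with a structured 5′ leader that it recognises.

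The cells were COS, an established line from African green monkey kidney that carries SV40 large T antigen. They received siRNAs directed at the coding region of human RHA, or scrambled siRNAs, each at 0.5 nM. In every group the cells spent 4 h without serum and then 24 h in serum. RNA was taken from the cytoplasmic lysate and from the polysome fractions of sucrose gradients, and 25 ng per sample was amplified for Affymetrix rhesus macaque arrays. There were 4 groups of 2 arrays: polysomal and cytoplasmic RNA under RHA siRNA, and polysomal and cytoplasmic RNA under control siRNA. The titles number the arrays as replicates 1 and 2, called sets 1 and 2 here, but no label states whether the cultures were separate, so a p-value here reflects the spread between arrays, which may be technical. The siRNAs were designed on the human sequence, and the probes on that of the macaque.

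DHX9 had an intensity of 97.2 and 269 in polysomal and 130.1 and 254 in cytoplasmic RNA under RHA siRNA (sets 1 and 2), against 359 and 477 in polysomal and 244 and 342 in cytoplasmic RNA under control siRNA. It was lower under RHA siRNA in every within-set comparison, with log2 differences of -1.36 in polysomes (SE 0.59) and -0.67 in cytoplasm (SE 0.59) and an adjusted p in limma of 1.00 in each. Median intensity over all probe sets was 19.3 to 20.8 on every array. Arrays of different sets correlated less (Pearson's r of 0.814 to 0.867 across probe sets) than arrays of 1 set (0.931 to 0.987), and within set 1 the cytoplasmic array under control siRNA correlated least with the others (0.931 to 0.952). Among markers of cell type, the mesenchymal filament VIM, itself a TOP mRNA on the list below, was bright (mean log2 12.26). Of the other fibroblast-like markers, FN1 (9.35), S100A4 (8.91), COL1A1 (5.96) and THY1 (4.90) were above the limit for testing, and COL1A2 was under it. Of 7 kidney epithelial markers, 4 were above the limit (EPCAM at 8.40, PAX8 at 6.43, KRT8 at 6.31 and KRT18 at 4.88). CDH1, LRP2 and PAX2 were under it. Of 3 leukocyte markers, LYZ (5.82) and CD14 (4.46) were above the limit and PTPRC was under it on its 4 probe sets.

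Ribosomal protein mRNAs were among the brightest signals on the arrays. Of the 34 genes, read by the brightest probe set of each, 21 lay in the top 1% of all probe sets by mean level and 26 in the top 5%. The brightest was RPL23, a protein that also binds the p53 regulator MDM2, with a mean log2 intensity of 13.63. RPL26 and RPL17, which line the exit of the nascent peptide tunnel, followed at 13.59 and 13.54. At the other end stood RPS16 (4.55), RPS19 (4.92), RPL5 (5.12) and RPL4 (5.89), close to the limit of 4.32 above which probe sets were tested. Levels of different probe sets cannot be set against each other as amounts of mRNA, so this order is one of signal only.

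**Figure D1:**
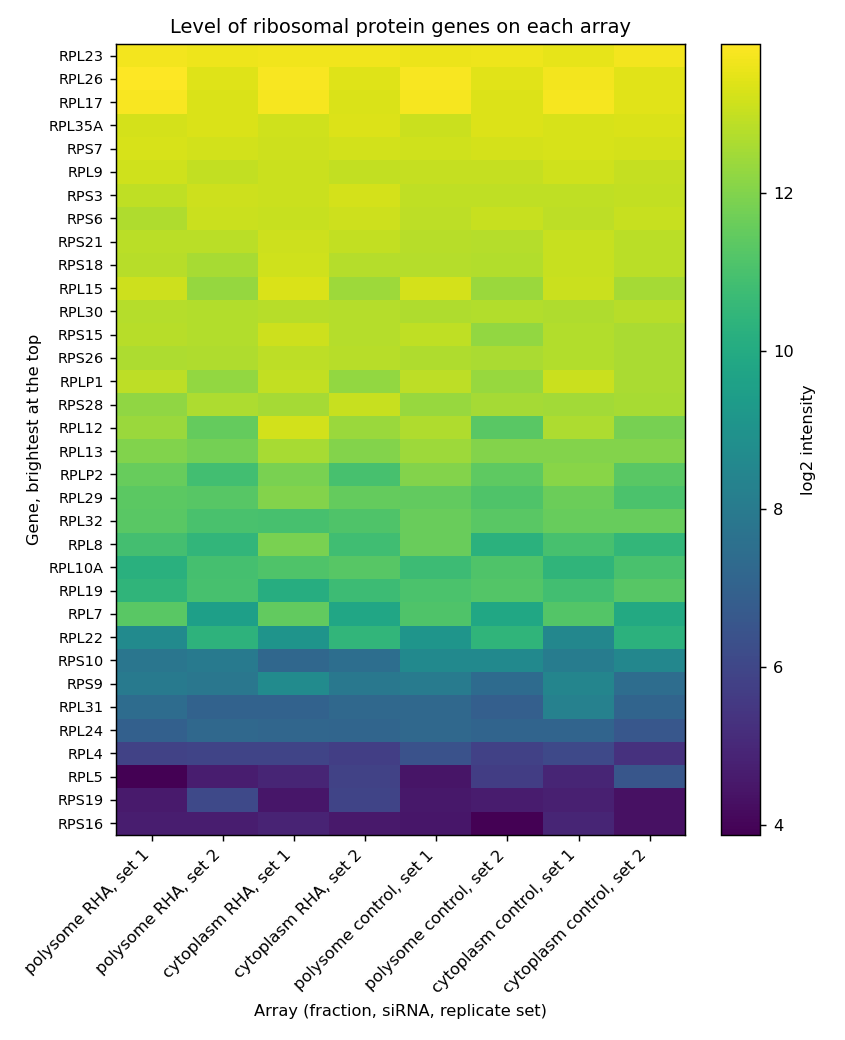
Log2 intensity of the 34 ribosomal protein genes (rows, by mean level) on the 8 arrays (columns, by fraction, siRNA and set), each read by its brightest probe set. Sets differ more than fractions or siRNAs in some rows, as in RPL7 and RPL22, and the lowest rows, RPS16, RPS19, RPL5 and RPL4, lie near the limit of 4.32.

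For several of these genes the sets differed more than the fractions or the siRNAs did. RPL7, a large subunit protein, had 2535 in polysomal and 2838 in cytoplasmic RNA under RHA siRNA in set 1, and 734 and 897 in set 2. Under control siRNA it had 2256 in polysomal and 2367 in cytoplasmic RNA in set 1, and 907 and 1002 in set 2. Every array of set 2 was thus below every array of set 1 for RPL7 (log2 difference between sets -1.50), and the reverse held for RPL22, an RNA-binding protein of the large subunit (1.54). Over the 34 genes the median size of the set difference was 0.37, against 0.55 over all 10106 tested genes. Since each set held every group, the differences that follow are means of the values within the sets, and the set values stand beside them.

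The main question for TOP mRNAs is how they divide between polysomes and cytoplasm. Under RHA siRNA the median log2 ratio of polysomal over cytoplasmic signal was -0.15 over the 34 genes (-0.19 in set 1 and -0.08 in set 2), against 0.02 over all tested genes. Under control siRNA it was -0.04 (-0.02 in set 1 and -0.06 in set 2), against 0.08 over all tested genes. Taken over both siRNAs it was -0.10 (-0.08 in each set), against 0.07 over all tested genes. Without the cytoplasmic RHA array of set 1 the median under RHA siRNA was -0.04, or -0.12 where the fit also held a term for the set. Without the polysomal control array of set 2 that over both siRNAs was -0.01, or -0.07 with the term. Leaving out any single array with the term gave medians of -0.24 to -0.06 under RHA siRNA, the ends being those without the polysomal RHA array of set 2 and of set 1, and of -0.05 to -0.01 under control siRNA. After quantile normalization of all arrays the medians of the 34 genes were -0.05 under RHA siRNA and -0.02 under control siRNA. Over all tested probe sets they were then -0.004 and -0.01, so the distance to all genes depended on the scaling. The ratio is relative to other RNAs, since equal amounts of RNA were labelled, and a negative value does not mean that most of an mRNA lay off polysomes.

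No ribosomal protein gene passed the test in either ratio. In limma the lowest adjusted p among them was 1.00 under RHA siRNA, under control siRNA and over both, and the test called 0% of 26383 probe sets in each of these comparisons, and 0% in each of the 3 other comparisons below. In this fit, which leaves the set difference in the error, 0 of the 34 had an unadjusted p under 0.05 in the 3 ratio comparisons, where 70 probe sets of all had one under RHA siRNA, 55 under control siRNA and 59 over both. Standard errors over the 34 genes were 0.28 to 0.91 for each siRNA, with a median of 0.36, and thus larger than most of the ratios. They include the difference between sets, which cancels in a ratio taken within each set. In simulated data of this design the same test recovered 0 of 100 probe sets shifted by log2 2 in each ratio, so the absence of calls does not bound the size of the ratios.

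The direction was lower in polysomes more often than the background gives. Under RHA siRNA 20 of 34 genes were lower in polysomes in both sets and 7 were higher in both, where 24.1% and 32% of all tested probe sets were. Under control siRNA 15 were lower in both sets and 5 higher, where 20.2% and 30.5% of probe sets were. In all 4 comparisons within a set and siRNA, 10 of 34 were lower and 1 was higher in polysomes, where 6.27% and 8.67% of all tested probe sets were. The 10, each read by its brightest probe set, were RPL30, RPL5, RPL7, RPLP1, RPS18, RPS21, RPS26, RPS28, RPS6 and RPS9, and the 1 was RPS10. A second probe set of RPS6, nearly as bright (mean log2 12.95), was higher in polysomes in set 1 under RHA siRNA and set 2 under control siRNA. A dim one of RPL30 was higher in set 1 under RHA siRNA only. The counts above carry no test, and the genes share their arrays, so they are not independent of each other.

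**Figure D2:**
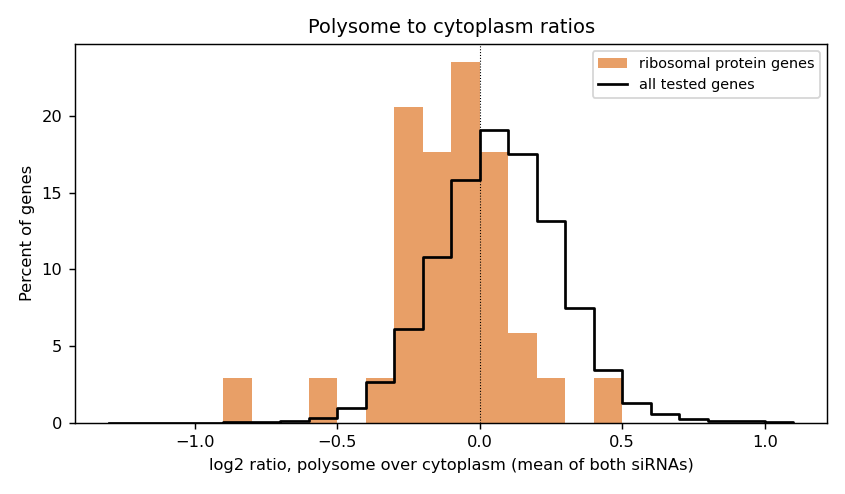
Share of genes (percent) by log2 ratio of polysomal over cytoplasmic signal, as the mean of both siRNAs, for the 34 ribosomal protein genes (bars) and all 10106 tested genes (line). The bars centre below 0 (median -0.10) and the line above it (median 0.07), and the ranges overlap widely.

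The groups overlapped for most of the genes, and where they separated, polysomes were more often below than above. Polysomal arrays lay wholly below cytoplasmic arrays for 7 of 34 genes under RHA siRNA, and wholly above for 2, where 7.42% and 10.1% of all probe sets did so. Under control siRNA 4 genes lay wholly below and 1 wholly above, where 5.22% and 8.67% of probe sets did. Over both siRNAs, with 4 polysomal and 4 cytoplasmic arrays, 1 gene (RPS21) lay wholly below and 0 wholly above, where 0.504% and 0.36% of probe sets did. The set difference widens each group, so that an overlap can go with the same direction in each set.

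RPS21, a small protein of the 40S subunit, had 7403 and 7337 in polysomal RNA and 8905 and 7963 in cytoplasmic RNA under RHA siRNA. With control siRNA it had 7213 and 6927 in polysomal RNA, against 8371 and 7404 in cytoplasmic RNA. All 4 polysomal arrays were below all 4 cytoplasmic arrays, but the nearest values, 7403.03 and 7403.59, were almost equal. The log2 ratio was -0.17 over both siRNAs (SE 0.21, adjusted p in limma = 1.00).

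RPS18 and RPS28, proteins of the head of the small subunit and of the mRNA exit region, had the same direction. RPS18 had 7219.6 and 6149 in polysomal and 9144 and 6873 in cytoplasmic RNA under RHA siRNA, and 7045 and 6702 in polysomal and 8303 and 7289 in cytoplasmic RNA under control siRNA. Its log2 ratio was -0.25 under RHA siRNA and -0.18 under control siRNA (SE 0.32 each). For RPS28 the ratios were -0.34 and -0.11 (SE 0.35 each), and for RPS26, a neighbour of RPS28 near the exiting mRNA, -0.16 and -0.03 (SE 0.29 each).

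Some of the brightest members held nearly equal signal in both fractions. RPL23 had 13212 and 12721 in polysomal and 12994 and 12873 in cytoplasmic RNA under RHA siRNA, and 12449.7 and 12632 in polysomal and 11675 and 13182 in cytoplasmic RNA under control siRNA. Its log2 ratios were 0.00 under RHA siRNA and 0.02 under control siRNA (SE 0.29 each). RPS7, another MDM2-binding protein, had ratios of 0.07 and -0.05, RPL26 0.05 and 0.02, RPL17 0.01 and -0.05, and RPL9 0.05 and -0.09. RPS3, which lines the mRNA entry channel, had -0.14 under RHA siRNA and -0.02 under control siRNA, and RPS6, the substrate of the S6 kinases, -0.18 and -0.02. These are values of the brightest probe sets. A further one of RPL26 (mean log2 10.80) had 2236 and 1494 in polysomal and 1443 and 1183 in cytoplasmic RNA under RHA siRNA. Under control siRNA it had 2991 and 1459, against 2396 and 1716. A dimmer one of RPS3 (7.81) was higher in polysomes in every within-set comparison.

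**Figure D3:**
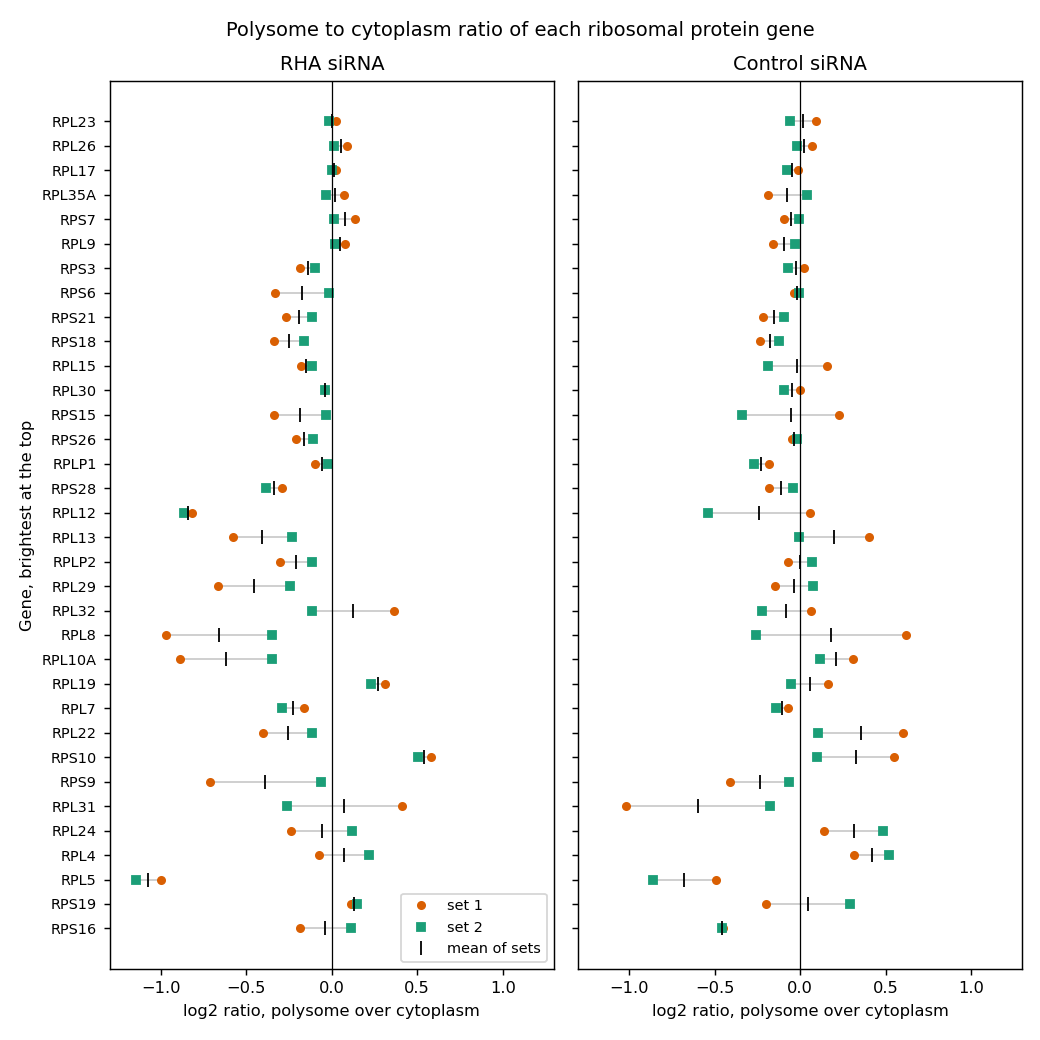
Log2 ratio of polysomal over cytoplasmic signal for each of the 34 genes, under RHA siRNA (left) and control siRNA (right), with set 1 as circles, set 2 as squares and their mean as a tick; genes run from the brightest at the top to the dimmest. Ratios of the brightest genes lie close to 0, and RPL5, RPL12, RPL8 and RPL10A lie farthest left under RHA siRNA.

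Under RHA siRNA the ratios farthest below 0 belonged to RPL5 and RPL12, and under control siRNA to RPL5, RPL31 and RPS16. RPL5, which carries 5S rRNA into the large subunit and binds MDM2 when unassembled, had 15.1 and 25.9 in polysomal and 30.1 and 57.4 in cytoplasmic RNA under RHA siRNA. Its values under control siRNA were 21.5 and 51.8 in polysomal and 30.3 and 94.2 in cytoplasmic RNA. It was lower in polysomes in every within-set comparison, with log2 ratios of -1.07 under RHA siRNA (-0.998 and -1.15 in sets 1 and 2) and -0.68 under control siRNA (-0.49 and -0.86), each with an SE of 0.73 and an adjusted p in limma of 1.00. Its probe set is dim, with 1 polysomal array under the limit for testing (an intensity of 19.9), so the size of this ratio is uncertain. A far brighter probe set that pairs RPL5 with another locus (mean log2 13.33), outside the rule, had -0.21 under RHA siRNA and -0.06 under control siRNA, so these 2 probe sets differed widely in the size of the ratio.

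RPL12, at the base of the stalk that recruits elongation factors, had 5297 and 2915 in polysomal and 9325 and 5302 in cytoplasmic RNA under RHA siRNA. Under control siRNA it had 6643 and 2533 in polysomal and 6391 and 3674 in cytoplasmic RNA. The log2 ratio was -0.84 under RHA siRNA (-0.82 and -0.86 in the sets, SE 0.62) and -0.24 under control siRNA (0.06 and -0.54, SE 0.62). The SE includes the log2 difference between sets, -0.97 for RPL12 and 1.15 for RPL5 above, which cancels in a ratio within a set. Thus both sets were lower in polysomes under RHA siRNA, and 1 of the 2 under control siRNA. The stalk proteins themselves lay nearer 0: RPLP1 had -0.06 and -0.23, and RPLP2 -0.21 and 0.00, under RHA and control siRNA.

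RPS10 is a protein of the small subunit head that is ubiquitinated on collided ribosomes. By brightest probe sets it was the single member higher in polysomes in every within-set comparison. It had 225 and 258 in polysomal and 151 and 181 in cytoplasmic RNA under RHA siRNA, against 390.4 and 393 in polysomal and 267 and 367 in cytoplasmic RNA under control siRNA. Its log2 ratio was 0.54 under RHA siRNA (0.58 and 0.50 in the sets, SE 0.32) and 0.33 under control siRNA (0.55 and 0.10, SE 0.32). The polysomal arrays were above the cytoplasmic ones under each siRNA. RPL19, which reaches from the large to the small subunit, had ratios of 0.27 and 0.05 (SE 0.38 each), and RPL4, a tunnel protein read by a dim probe set, 0.07 and 0.42 (SE 0.40 each).

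Other members also stood at the ends of the order, and the ratios of RPL31 differed between sets. RPL31 had 172 and 129 in polysomal and 129 and 155 in cytoplasmic RNA under RHA siRNA, against 154 and 121 in polysomal and 311 and 137 in cytoplasmic RNA under control siRNA. The value of 311 came from the cytoplasmic control array of set 1, the one least like the others of its set, and RPL31 had a ratio of -1.02 in set 1 and -0.18 in set 2 under control siRNA. RPS16 had a mean ratio of -0.04 under RHA siRNA and -0.45 under control siRNA, and RPL24 had -0.06 and 0.31. RPL22 had -0.26 and 0.35, RPL32 0.12 and -0.08, RPS19 0.13 and 0.04, and RPS9 -0.39 and -0.24.

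Small and large subunit genes both had medians below 0, but not in each set. The 12 RPS genes had a median log2 ratio of -0.17 under RHA siRNA and -0.05 under control siRNA, with 9 and 10 of them below 0. Among the 20 RPL genes the medians were -0.05 and -0.03, with 11 below 0 under each siRNA, and under control siRNA the sets differed in sign (0.06 in set 1 and -0.06 in set 2). Of all tested genes 52.0% were above 0 under RHA siRNA and 61.8% under control siRNA. The range was wider among RPL genes, from -1.07 to 0.27 under RHA siRNA, than among RPS genes, from -0.39 to 0.54, but no difference between the subunits was tested.

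The spread of the ratios narrowed with signal. Over both siRNAs the 18 members with a mean log2 of 12 or more had ratios from -0.54 to 0.04 (SD 0.13), the 9 from 8 to under 12 had an SD of 0.23, and the 7 under 8 ranged from -0.88 to 0.25 (SD 0.38). Of the 18 bright members, 15 lay below 0, with a median of -0.09. The 114 other genes in the same range of signal had a median of 0.04, with 41 below 0. Under RHA siRNA the medians of those members and other genes were -0.15 and 0.01, and under control siRNA -0.05 and 0.04. The highest single value of a member was 15052, for RPL26 in polysomal RNA under RHA siRNA in set 1, on an array whose highest value was 16579. How far a limit at the top of the scale holds such differences down was not tested.

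**Figure D4:**
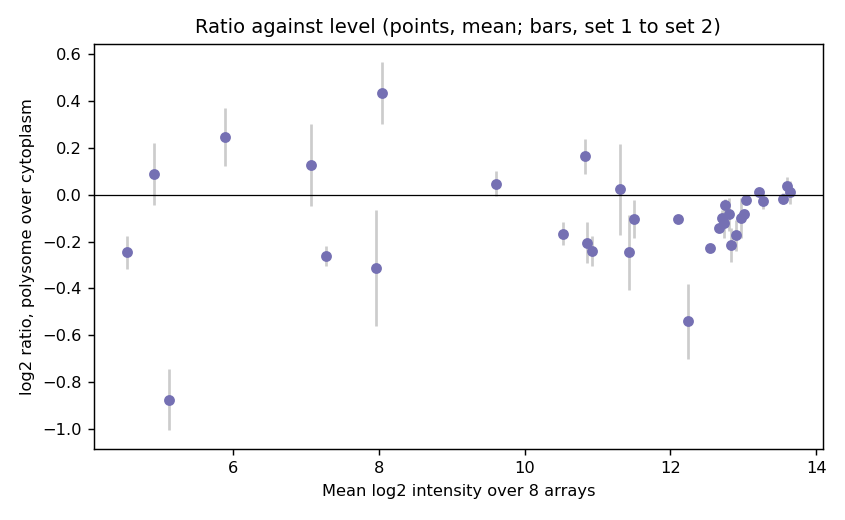
Log2 ratio of polysomal over cytoplasmic signal (vertical axis, mean of both siRNAs; bars from set 1 to set 2) against mean log2 intensity (horizontal axis) for the 34 genes. The points draw together at the bright end, where 15 of the 18 genes at or above 12 lie below 0, and RPL5 at the dim end is the lowest.

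Further probe sets of the same gene often went another way. For 13 genes with several tested probe sets, 10 of 17 further probe sets shared the sign of the brightest one for the ratio under RHA siRNA, and 8 of 17 under control siRNA. RPL9, a large subunit protein, had 0.05 and -0.09 on its bright probe set and 1.01 and 0.26 on a further one with a mean log2 of 6.71, under RHA and control siRNA. RPL13 had -0.41 and 0.20 on its brightest probe set, and 0.12 and -0.48, -0.18 and -0.19, and -0.58 and 0.08 on 3 others. Over all 51 tested probe sets the medians were -0.05 under RHA siRNA and -0.04 under control siRNA, against -0.15 and -0.04 over the 34 brightest. Of the 34 brightest probe sets, 13 carry a suffix for probes shared between transcripts, and ribosomal protein genes have many processed pseudogenes whose transcripts such probes could read. With the 28 genes that had an unshared tested probe set, the median was -0.06 under RHA siRNA.

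A measure of 3′ bias also differed between the arrays. The signal of 3′ over 5′ probe sets of the actin, GAPDH and EF1A control transcripts was, in log2, 3.94 and 3.95 in polysomal and 3.18 and 3.68 in cytoplasmic RNA under RHA siRNA. Under control siRNA it was 2.66 and 4.29 in polysomal and 4.25 and 4.00 in cytoplasmic RNA. It was thus higher in polysomes in both sets under RHA siRNA, and in set 2 only under control siRNA. Its part in the ratios was not tested.

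The next question was whether the ratio differed between the siRNAs. The change in loading, the ratio under RHA siRNA minus that under control siRNA, had a median of -0.12 over the 34 genes (-0.10 in set 1 and -0.03 in set 2), against -0.03 over all tested genes. Of the 34, 17 were below 0 in both sets and 9 above 0 in both, where 24% and 26.1% of probe sets were. The lowest adjusted p in limma was 1.00. With an array left out in turn the median ranged from -0.14 to 0.02, and it was above 0 without the polysomal control array of set 1, the cytoplasmic RHA array of set 1 or the cytoplasmic control array of set 2. With a term for the set it was below 0 whichever array was left out (-0.14 to -0.04). Over all 51 tested probe sets of these genes, not only the brightest, the median change was -0.01, against -0.02 over all tested probe sets. Of those 51, 25 were above 0 and 26 below. The change shares all of its arrays with the ratios above and is no separate evidence for them.

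Changes in loading farthest below 0 were those of RPL8 and RPL10A. RPL8, next to the peptidyl transferase centre, had 1889.6 and 1413 in polysomal and 3704 and 1803 in cytoplasmic RNA under RHA siRNA, against 3090.4 and 1226 in polysomal and 2011 and 1468 in cytoplasmic RNA under control siRNA. Its change was -0.84 (SE 0.81), made of -1.59 in set 1 and -0.09 in set 2. It therefore rested on set 1.

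RPL10A, of the stalk at the tRNA exit site, had 1206 and 1968 in polysomal and 2234 and 2512 in cytoplasmic RNA under RHA siRNA. With control siRNA it had 1685 and 2245 in polysomal and 1362 and 2073 in cytoplasmic RNA. In both sets its ratio was below 0 under RHA siRNA (-0.89 and -0.35) and above 0 under control siRNA (0.31 and 0.12), and the change was -0.83 (SE 0.57; -1.20 and -0.47 in the sets, adjusted p in limma = 1.00). RPL22 and RPL13 had changes of -0.61 each (SE 1.29 and 0.49), with -1.005 and -0.22, and -0.98 and -0.23, in sets 1 and 2.

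On the high side stood RPL31 at 0.67 (1.43 in set 1 and -0.08 in set 2), RPS16 at 0.42 (0.26 and 0.57), RPS10 at 0.22 (0.03 and 0.40) and RPL19 at 0.22 (0.15 and 0.28). The value of RPL31 again rested on set 1. RPS16 was read close to the limit for testing. A far brighter probe set that pairs RPS16 with another locus (mean log2 13.03), outside the rule, had a change of -0.15. RPL23, RPL30, RPL26 and RPL17 had changes between -0.01 and 0.06, each with an SE of 0.40 to 0.51. These standard errors include the difference between sets, which cancels in a change taken within each set. They therefore place no narrow bound on any single gene, even where the estimate is near 0.

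The siRNA effect was also read in each fraction apart. In polysomal RNA the median log2 difference, RHA over control siRNA, was -0.02 over the 34 genes (-0.07 and 0.00 in the sets), against 0.00 over all tested genes. In cytoplasmic RNA it was 0.07 (0.09 and 0.07 in the sets), against 0.06. Arrays of the groups did not overlap for 4 genes higher and 4 lower in polysomal RNA, where 7.91% and 7.79% of probe sets did not, and for 5 higher and 4 lower in cytoplasmic RNA, where 10.5% and 8.9% did not. In each fraction the median of the class lay close to that of all genes, and the counts lay near the background. In all 4 comparisons within a set and fraction, 6 genes were lower and 1 (RPS21) higher under RHA siRNA, where 8.99% and 9.81% of probe sets were. The 6, each read by its brightest probe set, were RPL19, RPL32, RPL5, RPLP1, RPLP2 and RPS10. Of 17 further tested probe sets of 13 genes, 7 shared the sign of the brightest one in polysomes and 7 in cytoplasm.

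**Figure D5:**
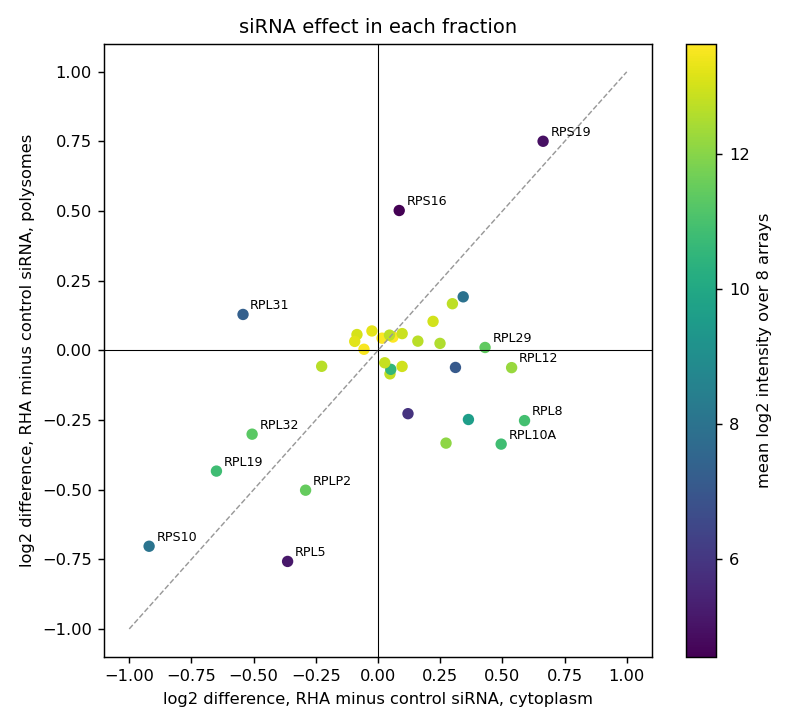
Log2 difference between RHA and control siRNA in polysomal RNA (vertical axis) and cytoplasmic RNA (horizontal axis) for the 34 genes, coloured by mean log2 intensity, with the diagonal dashed. The brightest genes cluster near 0, RPS10 and RPL19 lie low on both axes, and RPL8, RPL10A and RPL12 lie right of 0 and below the diagonal.

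RPS10 had the lowest value in cytoplasm: its intensities, given above, were lower under RHA siRNA in both fractions and both sets. The log2 difference was -0.70 in polysomes (-0.80 and -0.61 in the sets, SE 0.32) and -0.92 in cytoplasm (-0.83 and -1.02, SE 0.32). The unadjusted p of the cytoplasmic difference was 0.0273, the single one under 0.05 among the 34 genes over the 6 comparisons of this fit without a term for the set, and its adjusted p in limma was 1.00.

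RPL19 had 1368 and 1989 in polysomal and 1101 and 1697 in cytoplasmic RNA under RHA siRNA, against 2094 and 2369.9 in polysomal and 1871 and 2458 in cytoplasmic RNA under control siRNA. Its differences were -0.43 in polysomes and -0.65 in cytoplasm (SE 0.38 each). RPL32 had -0.30 and -0.51 (SE 0.31 each). On these probe sets both genes were lower on each RHA siRNA array than on the control array of the same set and fraction. A dimmer tested probe set of RPL32 (mean log2 6.63) differed in direction between the sets in each fraction. Its mean log2 was 6.886 under RHA and 6.818 under control siRNA in polysomes, and 6.435 and 6.382 in cytoplasm.

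RPLP2, an acidic protein of the stalk, had 3009.6 and 1832 in polysomal and 3713 and 1989 in cytoplasmic RNA under RHA siRNA. Its values under control siRNA were 4133 and 2676 in polysomal and 4338 and 2549 in cytoplasmic RNA. Its log2 difference was -0.50 in polysomes and -0.29 in cytoplasm (SE 0.51 each), and that of its partner RPLP1 was -0.06 and -0.23 (SE 0.43 each). RPL5 had -0.76 in polysomes and -0.36 in cytoplasm (SE 0.73 each).

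On the high side, RPS19, a protein of the 40S subunit mutated in Diamond-Blackfan anaemia, had 24.2 and 67.2 in polysomal and 22.4 and 60.6 in cytoplasmic RNA under RHA siRNA, against 23.2 and 24.7 in polysomal and 26.8 and 20.2 in cytoplasmic RNA under control siRNA. The difference was that of set 2 alone. Its mean was 0.75 in polysomes (0.06 and 1.44 in the sets) and 0.66 in cytoplasm (-0.26 and 1.58), close to the limit for testing. RPS16, as dim, had 0.50 in polysomes and 0.09 in cytoplasm. RPS9 had 0.19 and 0.34, and RPS15, a small subunit protein near the decoding site, 0.17 and 0.30 on its brightest probe set. A further bright probe set of RPS15 was higher under RHA siRNA in set 1 and lower in set 2, in each fraction. Its mean log2 was 12.095 under RHA and 12.153 under control siRNA in polysomes, and 11.759 and 11.986 in cytoplasm. On that probe set RPS15 was thus lower on average under RHA siRNA.

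In cytoplasm alone, RPL8, RPL12 and RPL10A had differences of 0.59 (0.88 and 0.30 in the sets), 0.54 (0.55 and 0.53) and 0.50 (0.71 and 0.28), with standard errors of 0.58, 0.62 and 0.40. In polysomes they had -0.25, -0.06 and -0.34. The same cytoplasmic arrays under RHA siRNA enter the ratios of these 3 genes under RHA siRNA, so the 2 sets of values are not separate measurements.

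Other genes were read beside them. Further TOP mRNAs, among them those of translation factors, RNA-binding proteins, RACK1, FAU and VIM, were read over 12 tested genes. Their median ratio was -0.04 under RHA siRNA and 0.03 under control siRNA, with 0 passing the test in either direction. RACK1, a scaffold protein of the 40S subunit, had a ratio of -0.63 under RHA siRNA (-0.89 and -0.36 in the sets) and -0.19 under control siRNA (-0.09 and -0.30; SE 0.32 each). The initiation factor gene EIF3H had -0.59 and -0.04, FAU, which encodes a 40S protein fused to a ubiquitin-like one, -0.03 and 0.24, and EIF3A 0.53 and 0.13. The list therefore held ratios on both sides of 0.

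The 62 mitochondrial ribosomal protein genes, which are encoded in the nucleus and translated in the cytosol, had median ratios of 0.00 under RHA siRNA and 0.08 under control siRNA. Over both siRNAs 39 of these 62 were above 0, where 10 of the 34 cytosolic ribosomal protein genes were. The share of all tested genes above 0 was 63.2%. None of the 62 passed the test in either direction in any comparison, and the difference between the lists was not tested.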

How the data were processed

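The authors deposited 1 linear intensity per probe set and array, with close medians between arrays, and no further normalization was applied. GCOS and RMA are named, with no version or role, per the submitters' processing notes. After a log2 transform of the deposited values, the brighter 50% of the 52766 probe sets other than Affymetrix controls (26383, by mean log2) entered a two-sided test in limma 3.58.1 (R 4.3.3; functions lmFit and eBayes) over all 8 arrays as a model of 4 groups, and Benjamini-Hochberg adjusted p under 0.05 over the whole table counted as changed. Gene names came from the platform annotation. Each gene was represented by its probe set of highest mean. The genes named are the 4 highest and 4 lowest in each comparison and a list of stalk, MDM2-binding and otherwise studied members. Members and lists were chosen with earlier results of these data known. The number of arrays limits the precision. The test was run on simulated data with the set difference: without the replicate number it recovered 0 of 100 probe sets shifted by log2 2 in each of 4 comparisons, and with it 13 for the ratio under RHA siRNA, 0 under control siRNA, 73 over both (with 5 false calls) and 0 for the change in loading. Alternatives were a replicate block, leaving out arrays, other filters, quantile normalization, an offset of 16 and other probe set choices.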

Additional observations from a re-analysis of the deposited data

How the results depend on the processing

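The planned test called 0 probe sets in each of 6 comparisons, and it also called 0 in all 48 fits that left out an array and in 30 fits with another filter, scale, block or offset. With the replicate block limma again called 0, with 1177 probe sets at an unadjusted p under 0.05 for the ratio under RHA siRNA, 1087 under control siRNA, 1061 over both, 1048 for the change in loading, 1334 for the polysomal and 3174 for the cytoplasmic siRNA effect. Among the 34 members the counts at that unadjusted p were 4 (RPL5, RPL12, RPL10A and RPS10), 1 (RPL5), 3 (RPL5, RPL12 and RPS10), 1 (RPL10A), 2 (RPL5 and RPS10) and 2 (RPS10 and RPL19) for those comparisons, and the lowest adjusted p in limma with that block was 0.279, for RPS10 in cytoplasm. Arrays sharing a replicate number correlated more closely than others, but no label says what the number marks and there are 2 of each group, so the model without it was kept, and its standard errors include the difference between sets. Added after seeing the data, the block with the cytoplasmic control array of set 2 left out called 1150 for the cytoplasmic siRNA effect, 748 for the ratio under control siRNA and 274 over both, with 0 members among them; the other 45 such fits called 0. The median of the members kept its sign in 25 of the 26 fits in which another filter, scale, offset or probe set choice moved it, and in 24 of 32 that left out an array of the comparison; the block and the absence of a filter cannot move it. Quantile normalization gave medians of -0.052 for the ratio under RHA siRNA, -0.017 under control siRNA, -0.051 over both, -0.060 for the change in loading and 0.024 for the cytoplasmic siRNA effect. Over all tested probe sets the medians were then -0.004, -0.012, 0.006, 0.030 and -0.006 in the same order. Under control siRNA the members thus lay close to all tested probe sets. The mean over the tested probe sets of each gene gave -0.053 under RHA siRNA, -0.071 over both, -0.045 for the change in loading and 0.032 for the cytoplasmic siRNA effect. With unshared probe sets alone it was -0.055 under RHA siRNA, -0.089 over both, -0.014 for the change in loading and -0.015 for the cytoplasmic siRNA effect. Adding probe sets of several symbols gave 0.028 for the polysomal siRNA effect, against -0.02. With 1 array left out, which mixes in the set difference, medians ranged from -0.171 to -0.043 for the ratio under RHA siRNA, -0.090 to 0.0083 under control siRNA, -0.121 to -0.012 over both, -0.139 to 0.021 for the change in loading, -0.129 to 0.065 for the polysomal and -0.0021 to 0.166 for the cytoplasmic siRNA effect. Leaving out the cytoplasmic control array least like its set (set 1), the ratio under control siRNA was 0.00 and that over both -0.05. The cause of these shifts was not tested.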

Other observations

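Probe sets that pair 1 ribosomal protein symbol with other loci, which the rule left out, added 10 genes for 44 in all, and gave 6 of the 34 (RPL22, RPL24, RPL32, RPL5, RPL9 and RPS16) a brighter probe set. RPL24 then had ratios of -0.43 under RHA siRNA and -0.02 under control siRNA, and RPS16 -0.24 and -0.09. Among the 10, RPLP0, the core of the stalk, had a log2 ratio of polysomal over cytoplasmic signal of -0.43 under RHA siRNA (-0.52 and -0.34 in the sets) and -0.25 under control siRNA (-0.03 and -0.46). RPS12 had -0.20 and -0.16, RPS14, of the small subunit platform, -0.11 and -0.14, and RPL27 -0.18 and -0.07. RPSA, a 40S protein also known as the laminin receptor, had -0.02 and -0.04. RPL34 was the single one of the 10 above 0 in both sets under each siRNA, with 0.19 and 0.05. Over the 44 genes, so read, 31 were below 0 in both sets under RHA siRNA and 22 under control siRNA, and the median ratios were -0.16 and -0.05.

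The 25 tested ribosome biogenesis factors, which build the subunits in the nucleolus, had a median ratio of -0.10 under RHA siRNA and 0.21 under control siRNA. Their median siRNA effect was -0.01 in polysomes and 0.40 in cytoplasm (0.46 in set 1 and 0.18 in set 2), against 0.06 over all genes. The change in loading had a median of -0.32 (-0.50 in set 1 and -0.10 in set 2), and limma called 0 of the 25. Of the paralogs with an L after the number, 5 were tested, with median ratios of -0.07 under RHA siRNA and -0.11 under control siRNA, and RPS27L, a paralog induced by p53, had -0.49 for the cytoplasmic siRNA effect with an SE of 1.72.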
